A study of Mus musculus with 4 samples.

Results

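Accessible chromatin was described across a 2 Mb window of chromosome 15 (mm10), from 85.3 kb before to 1914.7 kb after the first base of Myc, that holds Myc, the long noncoding RNA gene Pvt1 and the blood enhancer cluster downstream of them. Overlapping peaks (at least 1 bp) of 4 ATAC-Seq libraries were merged into union regions, and a region was kept when at least 2 libraries held a peak in it. The window had 63 of the 137553 union regions on the autosomes and X. The libraries, 2 control and 2 KO, came from sorted bone marrow cells of mice that share the C57BL/6, CD45.2 background. The labels call these cells long-term stem cells (ltHSC) and the study's text calls them stem and progenitor cells (HSPCs), so how many progenitors they hold is not known. The control mice are WT by their labels and Cpt1a fl/fl, with floxed alleles, in the study's text. In the KO mice the same alleles were deleted by Vav1-Cre, which is active throughout the hematopoietic system, so that the deletion is not limited to stem cells. The mice were adults of both sexes, and nothing in the sources used here says whether animals were pooled or which sex each library is.

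ATAC-Seq cuts open DNA with a transposase, and stretches with many cuts are called as peaks. For each peak summit the authors deposited a fold, which is the signal over the background of the same library, and a −log10 q. No read counts come with the lists, so the read depth is unknown, and where a library has no peak the site may still be open below detection. To compare strength within a library, each region was given the highest fold of its summits and its percentile by fold among all union regions of that library, where 100 is the strongest. Many weak peaks have equal folds and share a percentile. The KO libraries held fewer regions than the controls (113972 and 107662 against 118842 and 117085), and where the regions not held are weak ones this alone lowers the percentile of a shared region. Where the order of the genotypes turns on this, the percentile among the 80271 regions held by all 4 libraries is given too, a ranking chosen after the values were seen.

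Myc encodes a transcription factor that drives growth and division. In blood stem cells its level sets the balance between self-renewal and differentiation. Pvt1 lies just downstream of Myc, and its promoter and body hold elements known to influence Myc. In blood cells much of the control of Myc comes from the blood enhancer cluster, a group of separate enhancer modules in the gene desert far downstream, which is bound by hematopoietic factors and contacts the Myc promoter by looping. Here the distal zone, from 1.6 to 1.8 Mb downstream of the first base of Myc, stands for that cluster. Single modules were not assigned.

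The cells were checked against promoters of marker genes. Peaks within 1 kb of the start lay at 9 of 9 stem cell genes (Procr, Slamf1, Kit, Mecom, Hlf, Meis1, Gata2, Tal1 and Cd34) in every library, and 8 to 9 of them had a −log10 q of at least 5. Peaks of any score also lay at 5 of 5 B cell genes and 3 of 5 erythroid genes in every library. They lay at 2 to 4 of 5 T cell genes, 4 to 5 of 5 neutrophil genes and 3 to 4 of 6 genes of other tissues. Peaks with a −log10 q of at least 5 lay at 1 to 2 T cell genes, 2 to 3 B cell genes and 3 erythroid genes. They lay at 0 to 4 neutrophil genes, with 0 in KO 2, where all 5 had a peak of some score. Of the 6 genes of other tissues, 1 to 3 had such a peak. A peak at a promoter therefore was not limited to genes of stem cells. Cpt1a, the targeted gene, had peaks in 17 and 15 of its 18 regions in the controls and in 14 and 14 in the KO libraries, which does not show the deletion, since peaks cannot be read as missing exons. A −log10 q of 5 or more was given to 42.5% and 46.8% of all summits in the controls and to 40.5% and 35.1% in KO 1 and KO 2.

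One annotated start with a RefSeq promoter lies inside the distal zone, that of the long noncoding RNA gene 4930449C09Rik, 1.733 Mb from the first base of Myc. Its promoter is chr15:63718098-63718397 (GRCm38.p6, plus strand, 250 bases before to 50 after the start). It is shown as the only promoter of the distal zone in the promoter set used here. That set lacks Myc, Pvt1 and the long noncoding RNA gene Gm41336, among others, so their sequences could not be shown. No library had a peak on the 4930449C09Rik promoter or within 1 kb of its start, although it sits between open regions of the cluster. Capitals mark the single match to CAGGAAGT, an ETS motif.
4930449C09Rik promoter: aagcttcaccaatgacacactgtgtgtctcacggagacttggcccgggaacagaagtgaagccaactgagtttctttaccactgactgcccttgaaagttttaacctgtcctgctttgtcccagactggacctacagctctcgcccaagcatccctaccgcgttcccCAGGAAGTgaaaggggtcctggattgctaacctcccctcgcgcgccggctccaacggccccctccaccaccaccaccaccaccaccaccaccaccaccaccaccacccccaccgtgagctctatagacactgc
Searched on both strands, this motif is in 3.35% of 32619 promoters of the same length. No match was found for the E-box motif CACGTG, held by 7.2% of promoters, or the GATA factor motif GATAAG, held by 7.47%. Nor was there one for the RUNX motif TGTGGT (16.6% of promoters) or for GAGGAAGT, the motif of the ETS factor PU.1, which overlaps the ETS motif in all but its first letters (3.22% of promoters). The E2F motif TTTCGCGC (0.325% of promoters) and the GC box GGGCGG (35.9%) were also without a match. None of the other 7 starts of the window in the promoter set had a peak within 1 kb either (Gm41333, Gm30113, Gm41334, Gm30159, Gm41335, Gm20740 and Gsdmc3). This does not hold for all genes of the window. Outside that set, Myc had 2 union regions and Pvt1 had 1 within 1 kb of the first base, and Gm41336 had 1 at an end.

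Open regions were unevenly spread over the window. There were 2 upstream of Myc, 2 at the Myc promoter, 1 in the rest of Myc, 5 between Myc and Pvt1, 1 at the Pvt1 promoter, 16 in the body of Pvt1, 13 in the desert between Pvt1 and the distal zone, 17 in the distal zone and 6 beyond it. This gave 8.5 regions per 100 kb in the distal zone and 7.23 in the body of Pvt1, against 0.981 in the desert. The whole window, with 63 regions, lay between the lower quartile (35) and the median (89) of the 1265 windows of 2 Mb with a union region.

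**Figure D1:**
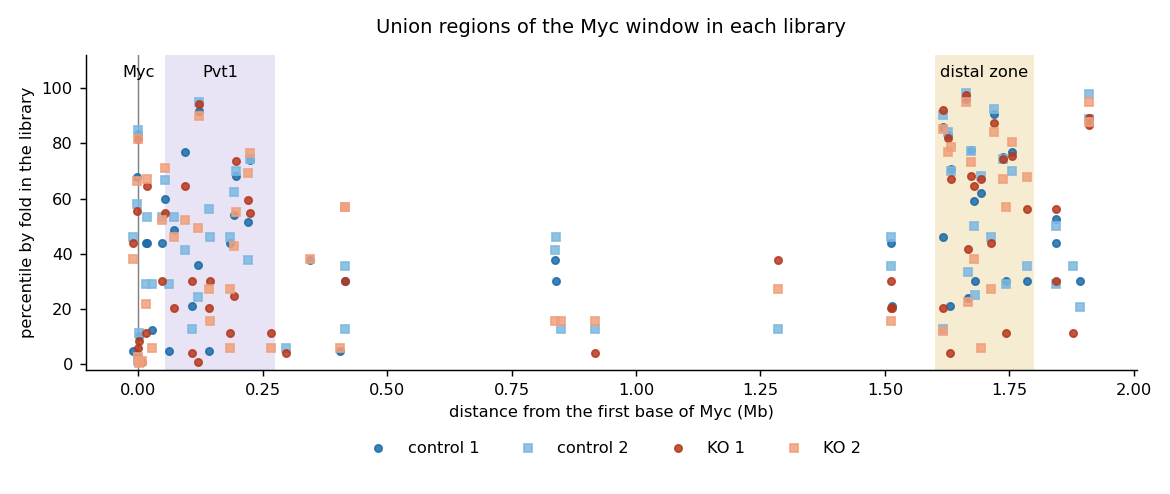
Percentile by fold (y axis) of every union region of the window in each library that held it, against the distance of its midpoint from the first base of Myc in Mb (x axis). Control libraries are blue and KO libraries red, and the shaded bands are the body of Pvt1 and the distal zone. The desert between the bands has few regions, and the points at 1.66 Mb lie between 94.9 and 98.1 in the 4 libraries.

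All 4 libraries held 36 of the 63 regions (57.1%), close to the 58.4% over all union regions. Another 9 were held by 3 libraries, and the one without a peak was control 1 in 4 cases, KO 1 in 3 and KO 2 in 2. A further 11 were held by 1 control and 1 KO library, 4 only by both controls and 3 only by both KO libraries. In the distal zone 14 of 17 regions (82.4%) were in all 4 libraries, and in the desert 2 of 13 (15.4%). Among the 14887 union regions of the genome over 50 kb from a protein-coding gene, a comparison chosen after the values were seen, this share was 52.6%. Of the distal zone regions at such a distance, 11 of 14 were in all 4 libraries. In the whole distal zone 1 region was only in control and 0 were only in KO, against 6.1% and 4.71% of the far regions of the genome. The high distal share in all 4 libraries depended on the setting. With lists of equal length it was 14 of 16, against 61.2% of all union regions. With a minimum −log10 q of 5 it was 8 of 12, against 67.6%. With the 100000 strongest summits of each library it was 8 of 12, against 72.1%. With a covered share of 0.5 it was 7 of 17, against 39.6%.

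**Figure D2:**
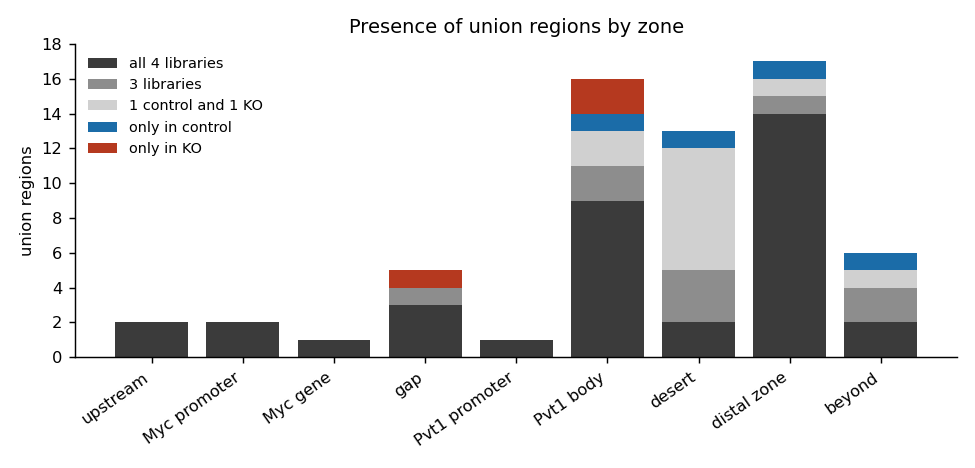
Number of union regions (y axis) in each zone of the window (x axis), stacked by the libraries that held them. The distal zone is mostly regions of all 4 libraries (14 of 17), and the desert mostly regions of 1 control and 1 KO library (7 of 13).

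The Myc promoter was open in every library. The region over the first base of Myc (chromosome 15, 61984905 to 61985899) had a highest fold of 9.85 in control 1, 10.45 in control 2, 9.29 in KO 1 and 8.92 in KO 2. Its percentile by fold was 83.3 and 84.8 in control and 81.4 and 81.7 in KO. Both KO values lay below both controls (84.1 ± 1.1 in control and 81.6 ± 0.2 in KO, SD, n = 2 each), a difference of −2.5 percentile points with p = 0.333 by a two-sided exact permutation test. With 2 libraries against 2, this is the smallest p the test can give, so no difference between the genotypes could pass 0.05. Ranked among the regions of all 4 libraries alone, it was at 75.3 and 77.8 in control and 73.7 and 75.5 in KO, so that the genotypes overlapped (difference −2.0). By −log10 p the same region was at percentile 94.8, 95.6, 94.3 and 94.4, a difference of −0.8. Across the promoters of the 14410 genes with a region in all 4 libraries, 32.8% to 38.4% had a lower percentile by fold than that of Myc.

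Inside this region the 3 main summits fell at nearly the same places in the 4 libraries, and weaker summits at its edges did not. With the first base of Myc as 0, an upstream summit lay at −141, −144, −141 and −148 bp in control 1, control 2, KO 1 and KO 2. A middle summit lay within 110 bp after that base, and a downstream summit 256 to 266 bp after it. Myc is known to be transcribed from more than one start in this stretch. The upstream summit was the highest in control 1 (fold 9.85) and control 2 (10.45), while the middle summit was the highest in KO 1 (9.29) and the downstream summit in KO 2 (8.92). The ratio of the upstream to the middle fold was 1.04 and 1.12 in control and 0.97 and 0.91 in KO (1.08 ± 0.06 and 0.94 ± 0.04, SD, n = 2 each; two-sided exact permutation p = 0.333, the smallest possible). This ratio was chosen after the values were seen. The ratio of the upstream to the downstream fold overlapped between the genotypes, at 1.38 and 1.04 in control and 1.05 and 0.9 in KO.

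**Figure D3:**
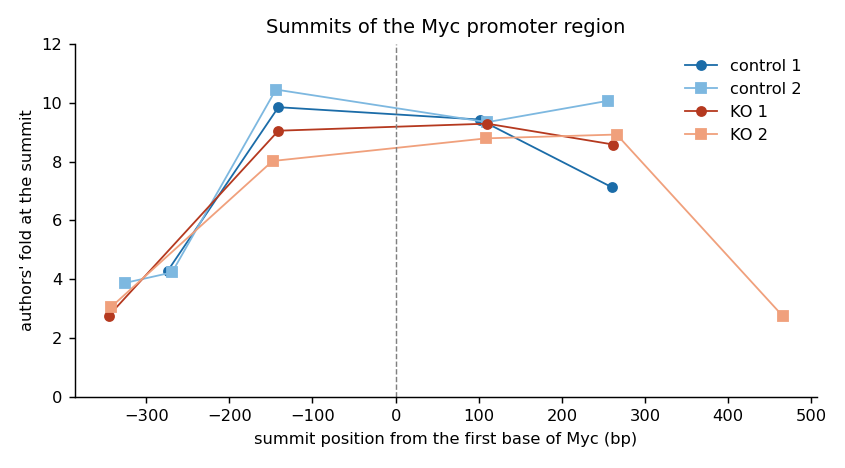
Authors' fold (y axis) at each summit of the Myc promoter region against its position from the first base of Myc in bp (x axis, the dashed line is the first base), with 1 line per library. The upstream summit leads in both controls, and the folds of the upstream summit run from 8.02 in KO 2 to 10.45 in control 2.

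Smaller regions flanked the Myc promoter in every library. The region 1.8 kb upstream (61983351 to 61983677) was the stronger of the 2 upstream regions, with percentiles by fold of 67.7 and 58.1 in control and 55.5 and 66.5 in KO, which overlapped. By −log10 p it was higher, at 88.8 and 84.1 in control and 82.7 and 88.2 in KO. The other, 10.2 kb upstream, ranged from 5.0 in control 1 to 46.0 in control 2, with both KO libraries between (43.8 and 38.0). A region 0.8 kb upstream was weak by fold. It stayed between percentiles 1.1 and 6.0, and the genotypes overlapped. By −log10 p it lay between 27.4 and 42.9. Among the regions of all 4 libraries it was by fold at 0.9 and 0.3 in control and 2.1 and 1.3 in KO, both KO libraries above both controls. The region inside Myc, 1.9 kb from its first base, was also low by fold, at 10.4 and 11.5 in control and 8.4 and 0.4 in KO. Among the regions of all 4 libraries it overlapped between the genotypes, at 3.2 and 3.6 in control and 3.2 and 0.3 in KO. By −log10 p it was near the middle, at percentiles 52.8, 53.0 and 52.6 in control 1, control 2 and KO 1, and at 25.8 in KO 2. Between Myc and Pvt1, the region 17.7 kb from the first base of Myc had folds of 3.90 and 4.74 in control and 5.86 and 6.06 in KO, so that both KO libraries lay above both controls. The region at 14.5 kb went the other way, with folds of 3.90 and 3.26 in control and 2.61 and 3.10 in KO. The region at 46.8 kb overlapped between the genotypes, with percentiles of 43.8 and 53.4 in control and 30.0 and 52.3 in KO.

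The Pvt1 promoter was a broad region of lower folds. It spanned 1664 bp (62037603 to 62039266) and had a highest fold of 5.20 in control 1, 6.25 in control 2, 4.72 in KO 1 and 6.52 in KO 2. The percentiles by fold were 59.8 and 66.6 in control and 54.7 and 70.9 in KO, so the genotypes overlapped (63.2 ± 4.8 and 62.8 ± 11.4, SD, n = 2 each; difference −0.4, two-sided exact permutation p = 1.0). The sign of this small difference turned with the setting, from −4.6 with a minimum −log10 q of 5 to 4.6 with the 100000 strongest summits of each library.

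The body of Pvt1 held 16 regions, of which 9 were in all 4 libraries. The strongest, 121.4 kb from the first base of Myc (62106445 to 62107024), had folds of 13.75 and 16.19 in control and 15.84 and 11.97 in KO. Its main summits in the 4 libraries lay within 6 bp of each other, and its percentile ran from 89.9 in KO 2 to 95.0 in control 2, above that of the Myc promoter by fold in every library. By −log10 p the order was the opposite in every library, with this region at 88.3, 89.7, 90.0 and 86.9. The regions at 196.3 and 224.8 kb followed, with percentiles from 55.0 to 73.6 and from 54.6 to 76.4, overlapping between the genotypes. The region at 94.3 kb had percentiles of 77.0 and 41.3 in the controls, farther apart than the KO libraries (64.7 and 52.3). Both KO libraries lay below both controls at 71.3 and 192.5 kb, the former not when ranked among the regions of all 4 libraries, and above them at 221.4 kb (51.5 and 37.6 in control, 59.4 and 69.3 in KO). The median percentile over the 9 regions was 54.2 and 56.4 in control and 54.6 and 52.3 in KO. It overlapped between the genotypes (difference −1.9), although the mean of the KO libraries was lower in 8 of the 9 regions. The mean of the KO libraries was lower in 58.4% of all regions held by all 4 libraries. When only these were ranked, it was lower in 6 of the 9 and in 49.3% of all.

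The desert between Pvt1 and the distal zone held only weak regions, none above percentile 57.1 in any library. Just 2 of its 13 regions were in every library. The region at 416.1 kb had percentiles of 30.3 and 35.7 in control and 30.0 and 57.1 in KO. The region at 1513.3 kb had 43.8 and 46.0 in control and 20.5 and 15.8 in KO, where the −log10 q was 3.51, 4.42, 1.45 and 1.02 in the same order. Both KO libraries thus lay below both controls at a weak peak. Of the other 11 regions, 7 were held by 1 control and 1 KO library.

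The distal zone held the strongest region of the window in each of the 4 libraries, both by −log10 q and by fold. This region lay 1663.0 kb (1.66 Mb) from the first base of Myc (63647748 to 63649030). Its highest fold was 17.32 in control 1, 19.72 in control 2, 19.62 in KO 1 and 15.47 in KO 2, and its −log10 q was 132, 190, 150 and 73.7. It ranked 4912 of 118842 regions in control 1, 2268 of 117085 in control 2, 2685 of 113972 in KO 1 and 5508 of 107662 in KO 2. Its main summits lay within 8 bp of each other, and a second summit just before it had folds of 12.22, 12.65, 11.81 and 10.54. The KO libraries were at percentiles 97.6 and 94.9 and the controls at 95.9 and 98.1, so the genotypes overlapped. By fold its lead over the region at 1910.3 kb, beyond the zone, was slight in control 2 (19.72 against 19.57). In KO 2 both had a rounded fold of 15.47 and ranked 5508 and 5510.

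The rest of the zone was a series of separate open regions of graded strength. The regions at 1616.4, 1719.6 and 1625.9 kb also reached percentile 75 in every library. The one at 1616.4 kb (63601457 to 63601993) had folds of 10.77 and 12.75 in control and 14.01 and 9.87 in KO, which overlapped. At 1719.6 kb (63704413 to 63705476) the folds were 12.99 and 14.13 in control and 11.37 and 9.65 in KO, and at 1625.9 kb (63611031 to 63611521) they were 9.75 and 10.18 against 9.45 and 7.74. In these last regions both KO libraries lay below both controls. Of the 14 distal regions in all 4 libraries, 4 reached percentile 75 in every library, against 26.1% of all such regions and 15.7% of those over 50 kb from a protein-coding gene.

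Next in strength came the regions at 1755.4, 1672.9, 1736.7 and 1631.9 kb, with lowest percentiles of 69.8, 68.3, 67.1 and 66.9. The region at 1755.4 kb (63740435 to 63741134) overlaps an end of the long noncoding RNA gene Gm41336 and had folds of 8.12 and 6.82 in control and 7.79 and 8.55 in KO. The region at 1672.9 kb was the widest of the zone at 1442 bp (63657504 to 63658945), with folds of 8.27 and 8.28 in control and 6.44 and 6.94 in KO, so that both KO libraries lay below both controls. The region at 1736.7 kb (63721660 to 63722505) lies within 4930449C09Rik, beyond the promoter printed above, and had folds of 7.64 and 7.67 in control and 7.49 and 6.07 in KO. Both KO libraries lay below both controls there, but not when ranked among the regions of all 4 libraries (62.9 and 62.6 in control, 63.5 and 56.0 in KO). The region at 1631.9 kb (63616827 to 63617615) had 6.82 and 6.82 in control and 6.19 and 8.14 in KO.

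Single regions of the zone departed from this pattern. At 1786.4 kb (63771693 to 63771869) the folds were 3.25 and 3.56 in control and 4.89 and 6.11 in KO, and the percentiles 30.3 and 35.7 against 56.4 and 67.7. It was the only distal region in which both KO libraries lay above both controls. Of the regions of the zone it was also the nearest to Gsdmc, a protein-coding gene that reaches into the zone from 63775971 onward. At 1693.6 kb KO 2 stood apart, with a fold of 2.44 against 5.52, 6.52 and 6.19 in control 1, control 2 and KO 1. Over the 14 regions the median percentile was 72.8 and 69.8 in control and 67.6 and 70.5 in KO (71.3 ± 2.1 and 69.1 ± 2.0, SD, n = 2 each), which overlapped (difference −2.3).

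**Figure D4:**
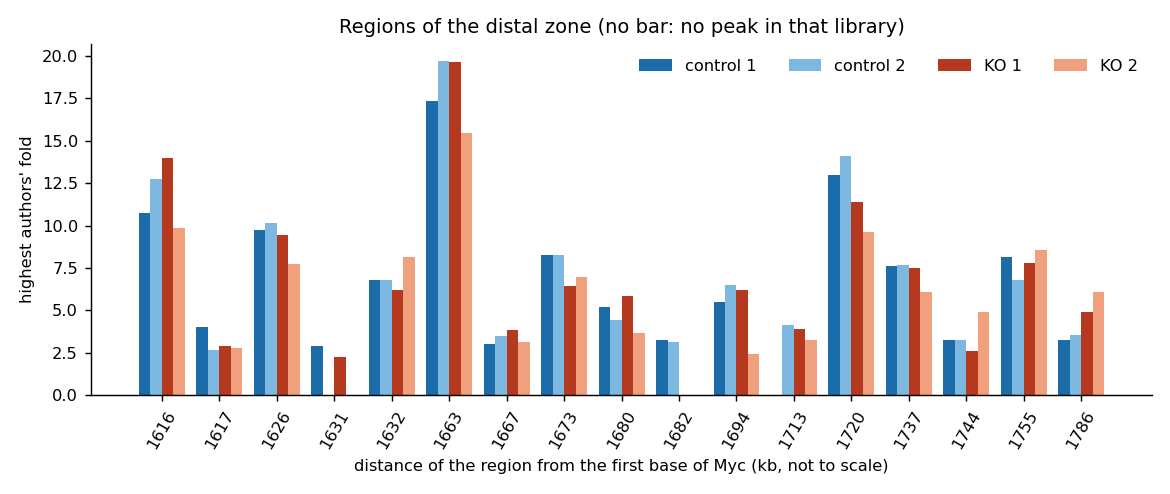
Highest authors' fold (y axis) of each distal zone region in each library, ordered by distance from the first base of Myc in kb (x axis, not to scale). The region at 1663 kb is the highest in every library (15.47 to 19.72), and bars are missing where a library had no peak.

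Genes of the Gsdmc family, which encode gasdermins, proteins that form membrane pores, lie at the end of the distal zone and beyond it. Gsdmc (63775971 to 63808739) reaches into the zone and had 0 union regions, and Gsdmc2, Gsdmc3 and Gsdmc4 lie beyond the zone. A pair of strong narrow regions in Gsdmc4 was found in every library. The one at 1910.3 kb (63895509 to 63895853) had folds of 11.70 and 19.57 in control and 12.38 and 15.47 in KO, and the one at 1910.9 kb (63896113 to 63896284) had 12.35 and 12.16 against 11.08 and 11.00. The first overlapped between the genotypes, and in the second both KO libraries lay below both controls by fold but not by −log10 p. The other 4 regions beyond the zone reached at most percentile 56.4, and none was in every library.

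Across the 36 regions in all 4 libraries, both KO percentiles lay below both controls in 11 and above them in 3. Over all 80271 such regions of the genome these shares were 24.1% and 14.0%, so the window's counts are read against a background in which a KO value below control was also the more frequent order. The order depended on which regions were ranked. When only the regions of all 4 libraries were ranked, 7 regions of the window were below and 4 above, against 18.6% and 19.1% of all such regions. In that ranking the distal zone had 3 below, at 1625.9, 1672.9 and 1719.6 kb, and 1 above, at 1786.4 kb. With lists of equal length the numbers were 10 and 4 of 33, against 21.3% and 16.6%. By −log10 p the numbers were 10 and 3, against 25.4% and 13.6% of all such regions. In the distal zone 4 of 14 regions were below and 1 above, and in the body of Pvt1 2 of 9 were below and 1 above. Taken region by region, the median difference (KO minus control) was −2.2 percentile points over the 36 regions, −5.0 over those in the body of Pvt1 and −2.0 over those in the distal zone, against −1.2 over all regions. Ranked among the regions of all 4 libraries, these medians were −0.9, −3.1 and 0.4, against 0.1 over all. The differences between library medians given for both zones above are another measure, and the measures can differ in sign. The range over the 4 libraries had a median of 6.9 percentile points in the 9 regions with a mean percentile of at least 75 and of 27.1 points in the other 27, against 6.1 and 23.6 over all such regions. Percentiles near 100 have less room to vary, so these ranges are no measure of how stable the folds were.

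**Figure D5:**
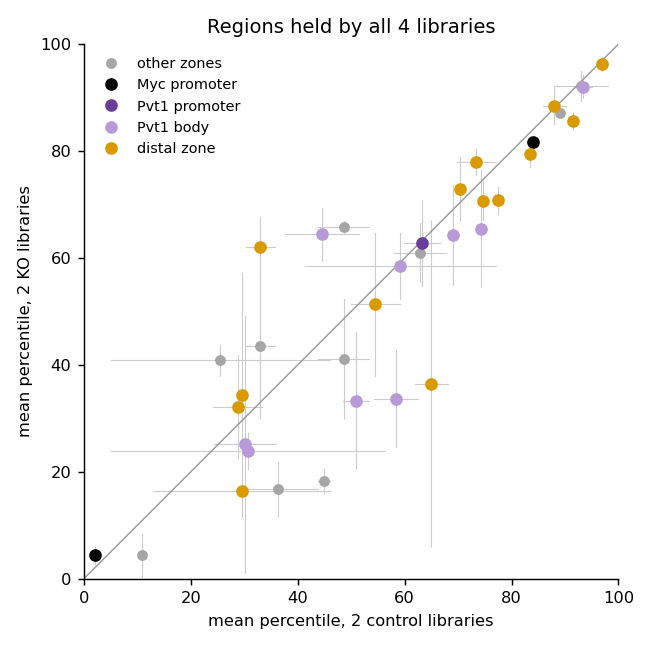
Mean percentile by fold in the 2 KO libraries (y axis) against the mean in the 2 control libraries (x axis) for the 36 regions held by all 4 libraries, colored by zone, with grey lines spanning the 2 libraries of each genotype and the diagonal marking equal means. The distal region farthest above the diagonal is the one at 1786.4 kb (30.3 and 35.7 in control, 56.4 and 67.7 in KO).

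Regions of 1 genotype alone were few and weak. Both controls and neither KO library held 4 of the 63 regions (6.35%, against 6.05% of all union regions), at 61.1 kb in Pvt1, 838.7 kb in the desert, 1682.4 kb in the distal zone and 1890.9 kb in Gsdmc3. Their −log10 q ran from 0.403 to 4.42. Both KO libraries and neither control held 3 (4.76%, against 3.47%), at 6.6 kb between Myc and Pvt1 and at 184.2 and 266.9 kb in Pvt1, and there the −log10 q was 0.459 to 1.68. None lay at a promoter of Myc or Pvt1. When weaker summits were dropped and only those whose −log10 q reached 5 were used, 26 regions remained in the window, and 15 of them were in all 4 libraries (67.6% of all regions at that threshold). Of these, 1 was only in control, at 192.5 kb in Pvt1 (−log10 q of 6.5 and 11.3), against 7.02% genome-wide. Another 1 was only in KO, at 1786.4 kb in the distal zone (5.87 and 7.72), against 0.807%. The other genotype had weaker peaks at both places. With the 100000 strongest summits of each library, 15 of 24 regions were in all 4 libraries (72.1% genome-wide), 0 were only in control (2.76%) and 3 were only in KO (3.11%). These 3 were the regions at 17.7 kb, in Pvt1 at 221.3 kb and at 1786.4 kb, where both KO folds lay above both controls. With lists of equal length, 33 of 57 regions were in all 4 libraries (61.2% genome-wide), 3 only in control (4.75%) and 2 only in KO (3.9%).

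Other genes of the Myc network were read from the regions within 5000 bp of each gene. The list holds Max, the partner of Myc, other proteins that pair with Max (Mxd1, Mxd3, Mxd4, Mxi1, Mga and Mnt), the related factor Mlx with its partners Mlxip and Mlxipl, the Myc paralogs (Mycn and Mycl), and genes for its turnover, binding or activity (Fbxw7, Usp28, Skp2, Zbtb17, Mycbp, Mycbp2 and Smarca4). Of these 19 genes, 5 had a region only in control and 3 a region only in KO, against 24.5% and 15.1% of 17847 protein-coding genes with a union region. Mxi1, an antagonist of Myc, and Mlxip, a partner of Mlx, each had 3 only in control and 2 only in KO, of 19 and 17 regions. Max, which Myc needs to bind DNA, had 6 regions, of which 4 were in all libraries and 0 were of 1 genotype alone. Of 11 genes for factors known at blood enhancers (Runx1, Gata2, Tal1, Erg, Fli1, Spi1, Lmo2, Lyl1, Myb, Meis1 and Cebpa), 6 had a region only in control and 4 a region only in KO. These genes had a median of 11.0 regions, against 4.0 over all genes, and a gene with more regions has more chances to hold such a region.

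The genes whose promoter region was nearest to that of Myc in percentile over the 4 libraries were Dyrk2 (Euclidean distance 1.14 percentile points), Rufy4 and Tns1 (1.28 each, with the same values in every library), Mycbpap (1.92) and Cd37 (1.97), among 14410 genes. For Dyrk2 the percentiles were 83.6 and 83.9 in control and 81.1 and 81.2 in KO. Likeness over 4 values is a description only.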

How the data were processed

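The data were 4 peak lists, called on each library alone and not on pooled samples. The submitters' processing notes name Bowtie2, MACS2 and mm10, and versions are not given in the sources used here. The deposited fold is a ratio of summit signal to background, and the deposited −log10 p and −log10 q are the authors' scores; the lowest −log10 p of any summit was 2.0. Between 253 and 492 summits of each list were written as chromosome positions and were read as such. The reads needed for the edgeR test of the study's methods were not used here, so presence and rank were compared instead.

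Groups came from the sample labels. Depth is unknown, so no counting interval was given. The permutation p-values only compare the observed split of these 4 libraries with the other possible splits, and do not measure the spread between libraries. Union regions, percentiles and exact permutation tests were computed with Python 3.11.15, numpy 2.4.6, pandas 2.3.3 and scipy 1.17.1, and merging, presence and ranking were tested on simulated lists. Gene bounds and promoters are RefSeq (GRCm38.p6), which gives no exons here. Zones were set by distance from the first base of Myc, with promoters as 1 kb on each side of the first base. The regions named are both promoters, the regions in all 4 libraries whose lowest percentile was highest (8 in the distal zone, 5 in the body of Pvt1 and 2 in each other zone) and every region of 1 genotype alone, and others, such as those where the genotypes did not overlap, were named after their values were seen. Members, zones and lists were chosen with earlier results of these data known. In the stem cell marker list and in the Myc network list, 1 gene each is not reported here and is in no count.

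Alternatives were a −log10 q of at least 5, lists of equal length (240940 summits), the 100000 strongest summits, summits widened by 200 bp both ways, a covered share of 0.5, ranking by −log10 p, other bounds of the distal zone and leaving out each library. Ranking only the regions of all 4 libraries was added after the data were seen.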

Additional observations from a re-analysis of the deposited data

How the results depend on the processing

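No paired analysis was possible because replicate numbers do not tie a control to a KO library. Regions were counted and ranked without a fitted test. With a minimum −log10 q of 5, all 4 libraries held 15 regions (8 of 12 in the distal zone). Both controls alone held 1 and both KO libraries alone 1. The differences in percentile (KO minus control) were −7.6 at the Myc promoter, −11.7 for the body of Pvt1 and −5.6 for the distal zone. With the 100000 strongest summits, 15 were in all 4 (8 of 12 in the distal zone), 0 in the controls alone and 3 in the KO libraries alone. The distal difference was then −0.1. With a covered share of 0.5, 18 were in all 4 (7 of 17 in the distal zone). The differences were then −4.0 at the Myc promoter, −16.6 for the body of Pvt1 and −5.3 for the distal zone. The Pvt1 promoter gave no value. Fewer peaks enter these settings by construction. Over the genome, the controls alone held 7.02% of regions at the minimum −log10 q of 5, and the KO libraries alone 0.807%. With the covered share of 0.5 these shares were 11.3% and 3.89%, with 39.6% in all 4 libraries. With the 100000 strongest summits they were 2.76% and 3.11%, and in the main setting 6.05% and 3.47%. How far such an imbalance moved the KO percentiles of shared regions genome-wide was not tested. Ranked by −log10 p, the Myc promoter difference was −0.8. For the body of Pvt1 the difference of −1.9 became −7.3 with lists of equal length, where 7 regions instead of 9 entered the medians. It became −8.9 with windows around summits, and the cause was not tested. The Pvt1 promoter difference of −0.4 turned to 0.7 with lists of equal length, 4.6 with the 100000 strongest summits, 0.2 with windows around summits and 0.4 by −log10 p, and was −4.6 with a minimum −log10 q of 5; the cause was not tested. Ranked among the regions of all 4 libraries only, an alternative chosen after seeing the data, the Pvt1 promoter difference was 2.7, that of the body of Pvt1 1.4, that of the Myc promoter −2.0 and that of the distal zone −0.6, and both KO percentiles lay below both controls in 7 regions instead of 11. For the body of Pvt1 and the distal zone these are differences between library medians. The medians of the differences region by region were −3.1 and 0.4 in this ranking.

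Leaving out 1 library gave 36 to 41 regions in all the others, of 53 to 56, with 14 to 15 in the distal zone. Over all union regions 70.3% to 72.3% were in all the others. Only in control were 6 of 53 without KO 1 and 7 of 56 without KO 2, against 14.5% and 11.4% of all union regions. Only in KO were 3 of 55 without control 1 and 7 of 55 without control 2, against 7.45% and 7.16%. A genotype left with 1 library gives no such count. The differences ran from −3.1 to −1.4 at the Myc promoter (−1.4 without control 2), from −8.8 to 8.4 at the Pvt1 promoter (4.1 without control 2 and 8.4 without KO 1), from −7.7 to 0.3 for the body of Pvt1 (0.3 without control 2, −7.7 without control 1) and from −3.9 to −0.6 for the distal zone (−3.9 without KO 2, −0.6 without KO 1). The regions with KO below control numbered 19 of 41 without control 1, 14 of 36 without control 2, 22 of 39 without KO 1 and 19 of 38 without KO 2. Over all such regions the shares were 36.6%, 37.6%, 43.4% and 38.6% in the same order. Those with KO above control numbered 7, 8, 10 and 9, against 30.1%, 29.3%, 28.8% and 31.2%. All these shares exceed the main ones since 1 library fewer has to be in order.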

Other observations

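Peaks of a single library were not counted above. In the window 96 of 159 merged regions (60.4%) were held by 1 library, against 59.3% over the genome. Of these, 31 were in control 1, 12 in control 2, 27 in KO 1 and 26 in KO 2. They were weak, and 2, both in control 1, had a −log10 q of at least 5, with a highest value of 6.74. The body of Pvt1 held 34 of them, the desert 23 and the distal zone 20, and none (0) lay at the Myc promoter.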
